A study of Mus musculus with 8 samples.

Results

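Oxidative phosphorylation (OXPHOS) is the process by which mitochondria make most of the ATP of a cell. Complexes I and II of the inner mitochondrial membrane take electrons from NADH and succinate, complexes III and IV pass them on to oxygen, and complex V, the ATP synthase, uses the proton gradient built on the way to make ATP. The subunits come from both genomes, so that complexes I, III, IV and V each join proteins made inside the mitochondrion with proteins encoded in the nucleus, while complex II is encoded in the nucleus alone. The subunit genes of these complexes were followed in sorted mouse Paneth cells (PCs), secretory cells of the small intestine that sit in the crypts and spend much of their output on antimicrobial peptides.

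The set was taken by name from the count table, as protein-coding genes whose symbol starts with mt- or follows the naming of the nuclear subunits (Nduf a, b, c, s and v, Sdh, Uqcr, Cox 4 to 8 and Atp5), without assembly factors. It held 102 of the 55414 genes of the table, namely 13 mitochondrially encoded and 89 nuclear encoded genes. The nuclear genes fell to complex I (39), complex II (4), complex III (8), complex IV (19) and complex V (19). The rule for membership used no measured value.

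The libraries came from WT mice, of the C57BL/6J strain per the study's methods, injected with PBS as the control or with TNF, an inflammatory cytokine. The small intestine was taken 3 hours later in both groups and PCs were purified on a cell sorter. There were 4 PBS and 4 TNF libraries, given as biological replicates. The TNF dose, the age of the mice and the sex of the mice behind each library are not stated in the sources.

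Total counts lay between 23824717 and 32576077 per library. Library TNF 4 stood apart from the other 7, with a TMM scaling factor of 0.448 against 0.995 to 1.36, a second principal component score of 63.9 against -29.1 to 4.22, and 51.4% of counts on Defa genes (alpha-defensins, the main PC products) against 32.02 to 37.9%. Normalized CPM, the unit of levels here, divide a count by the library total times its TMM factor, so the low factor of TNF 4 raises every normalized value of that library. All 10 Paneth markers were tested and 2 rose. They summed to 317935 to 467016 normalized CPM in PBS, 392963 to 461026 in TNF 1 to 3 and 1235066 in TNF 4. Of the other cell types, the 7 goblet cell markers summed to 7155 to 11183 normalized CPM in PBS, 11236 to 12022 in TNF 1 to 3 and 25434 in TNF 4, and the 6 stem cell markers to 1893 to 2781, 1708 to 2240 and 2025. The 8 enterocyte markers summed to 250.2 to 276 in PBS and 266 to 296 in TNF. The 9 immune markers summed to 9.98 to 14.8 in PBS, 14.5 to 17.6 in TNF 1 to 3 and 72.5 in TNF 4, with Cd3e and Adgre1 among those at 0 in all libraries, and the 7 stroma markers to at most 1.76. The 5 enteroendocrine markers summed to 10.3 to 13.2 in PBS and 30.3 to 61.0 in TNF, the 3 tuft cell markers to 11.9 to 27.3 and 7.58 to 52.9, and the 6 cycling cell markers to 157 to 192 and 128 to 170. Of the markers tested over the 8 libraries, where 19.6% of all genes were called lower and 23.4% higher, 4 of 6 for stem cells, 1 of 8 for enterocytes, 1 of 6 for cycling cells and 2 of 7 for goblet cells fell, and 1 of 7 for goblet cells, 3 of 4 for enteroendocrine cells, 2 of 4 for immune cells and 1 of 1 for stroma rose. Without TNF 4, 3 of 7 goblet cell and 3 of 8 enterocyte markers fell, 1 of 8 enterocyte and 3 of 5 immune markers rose, and the numbers called in each direction were as before in the other lists. Calls and medians of the members are therefore given with and without TNF 4. The part of other cells in the results was not tested. In bulk RNA, fewer cells of a type and less RNA per cell cannot be told apart.

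The mitochondrial genome was only partly visible in the counts. Of its 13 protein genes, 7 were counted in depth in every library, from 2142 to 4782 counts for mt-Nd6 up to 62079 to 114987 counts for mt-Co1. The other 6 lie next to each other on the mitochondrial chromosome. Of these, mt-Co2 and mt-Co3 (core subunits of complex IV), mt-Atp8 and mt-Atp6 (proton channel side of complex V) and mt-Nd4l (complex I) had 0 counts in all 8 libraries, and mt-Nd3 (complex I) had 0 to 2 counts per library. A count of 0 allows up to 3 counts per library, counting error only.

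In the GRCm39 genome these 6 genes lie within a stretch that is also present in nuclear DNA. Positions 6394 to 11042 of the mitochondrial chromosome (16299 bases in all) match chr1:24650616-24655265 on the minus strand, with 1 substitution and 1 extra base in the nuclear copy over 4649 mitochondrial bases. The border of the copy within mt-Co1 is shown because it separates a countable from a shared part of one gene. The first line is chrM:6334-6453 (plus strand), the second is chr1:24655206-24655325 (minus strand), both from GRCm39 and 5′ to 3′. Capitals mark the bases inside the shared stretch.
mt-Co1: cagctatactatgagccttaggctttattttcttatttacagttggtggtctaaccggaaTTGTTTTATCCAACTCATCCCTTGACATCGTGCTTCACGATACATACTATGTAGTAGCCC
chromosome 1: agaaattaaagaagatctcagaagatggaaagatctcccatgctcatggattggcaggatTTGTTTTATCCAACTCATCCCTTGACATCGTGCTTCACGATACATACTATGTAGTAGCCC

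The only substitution, T9461C in mitochondrial coordinates with the mitochondrial base first, falls in the third codon position of the first coding triplet of mt-Nd3. It stands in capitals in the next lines, at chrM:9459-9518 (plus strand) and chr1:24652141-24652200 (minus strand). Every other base of the 2 lines is identical.
mt-Nd3: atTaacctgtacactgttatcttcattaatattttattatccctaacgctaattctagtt
chromosome 1 copy: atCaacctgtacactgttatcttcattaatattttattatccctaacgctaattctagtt

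The smallest gene of the stretch, mt-Atp8, is printed whole (chrM:7766-7969, plus strand) because it had 0 counts and each of its bases is present in the copy. Capitals mark the 43 bases that it shares with the start of mt-Atp6 (7927 to 7969), so that a read from these bases belongs to both genes.
mt-Atp8: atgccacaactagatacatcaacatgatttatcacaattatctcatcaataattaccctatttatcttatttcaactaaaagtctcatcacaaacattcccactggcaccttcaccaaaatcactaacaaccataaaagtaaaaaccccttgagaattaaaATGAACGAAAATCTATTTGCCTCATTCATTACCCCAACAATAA

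The genes without counts were those copied whole or nearly whole elsewhere in the genome. For mt-Co2, mt-Atp8, mt-Atp6, mt-Co3 and mt-Nd4l, 100% of the 75-base stretches of the transcript occurred at another locus, and for mt-Nd3 98.9%. The share was 61.5% for mt-Nd4, 39.8% for mt-Co1, 5.71% for mt-Nd2, 1.66% for mt-Nd5 and 0% for mt-Nd1, mt-Nd6 and mt-Cytb, all of which were counted. The 7 pseudogenes annotated in the nuclear copy summed to 112 to 222 counts per library, and of these Gm29216 (the mt-Co1 copy, whose annotated end reaches past the border) held 86 to 186. The sources do not state how reads with several matches were treated, and its part in the zeros was not tested. The ribosomal RNAs of the mitochondrion were also seen, mt-Rnr1 at 27.3 to 208 and mt-Rnr2 at 51.6 to 369 normalized CPM, in libraries made by poly(A) selection.

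**Figure D1:**
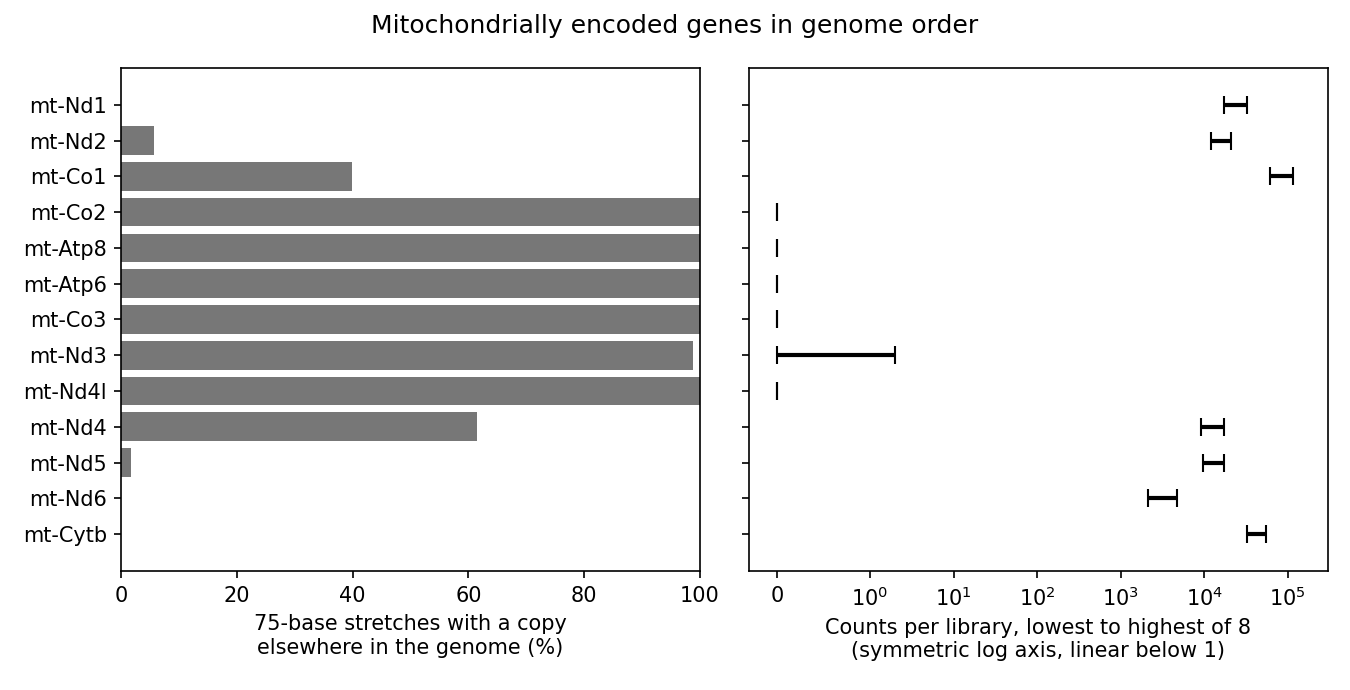
The 13 mitochondrially encoded genes in genome order, with the percentage of 75-base stretches that occur elsewhere in GRCm39 (left, bars) and the lowest to highest count over the 8 libraries (right, symmetric log axis). The 6 neighbouring genes from mt-Co2 to mt-Nd4l are at 98.9 to 100% and at 0 to 2 counts, and the other 7 have at least 2142 counts in each library.

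Among the genes that could be counted, the mitochondrial ones had a median of 479 normalized CPM per kb in PBS and lay at the top of the order per length, with 1 nuclear gene among them. The PBS mean per kb of transcript was highest for mt-Co1 (1654 normalized CPM per kb, the catalytic subunit of complex IV), then mt-Cytb (1191, cytochrome b of complex III), mt-Nd1 (702) and mt-Nd2 (479). The lowest of the 7, mt-Nd5 (220) and mt-Nd6 (194), were below the nuclear Atp5f1b. For mt-Co1 and mt-Nd4 (291) the shared part of the transcript is included in the length. The nuclear members had a median of 30.2 normalized CPM per kb over the 80 that were tested, and the highest were Atp5f1b (238) and Atp5f1a (156), the beta and alpha subunits that form the catalytic head of complex V. They were followed by Cox4i1 (136), the regulatory subunit IV of complex IV, and Ndufa4 (125), a small subunit first placed in complex I and now in complex IV. By complex, the median was 20.1 for I, 30.7 for II, 37.1 for III, 53.3 for IV and 40.1 for V, so the complex with most genes had the lowest median level.

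For complex IV the widely expressed isoforms were the abundant ones in PCs. Cox4i1, Cox6a1, Cox6b1, Cox7a2, Cox7b and Cox8a had PBS means of 106, 56.9, 54.3, 31.9, 47.8 and 68.7 normalized CPM. Their partners Cox4i2 (known from lung and hypoxia), Cox6a2 and Cox8b (heart and muscle), Cox7b2 and Cox8c (testis) had 0 counts in all libraries. Cox7a1, the heart and muscle form of Cox7a2, was detected at 0.43 to 1.1 normalized CPM in PBS, and Cox6b2, the testis form of Cox6b1, at 0.271 to 0.521 (97 counts over the 8 libraries). Ndufa4l2, the hypoxia-induced relative of Ndufa4, had 18 counts over the 8 libraries. In all, 12 of the 102 members were at 0 in every library, among them Ndufb11b and a second row with the symbol Atp5po (ENSMUSG00000116933). With mt-Nd3, Ndufa4l2 and Cox5b-ps, 15 members had too few counts to be tested. For 11 of the 89 nuclear members at least 25% of the 75-base stretches also occur elsewhere, with Atp5mc2 (88.0%), Atp5mc1 (76.4%), Cox7c (70.0%), Ndufs5 (69.0%) and Atp5mg (61.8%) the highest, so their counts are uncertain.

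The first comparison asked whether TNF changed these genes within 3 hours. Few of them passed the test. Of the 87 members tested, 2 were called at an adjusted p under 0.05 (edgeR quasi-likelihood test, Benjamini-Hochberg over all genes), or 2.30%, where 43.0% of all 13368 genes tested were called. Both were lower in TNF, a direction called in 19.6% of all genes. None of the 7 mitochondrially encoded genes and no nuclear member was called higher, against 23.4% of all genes. None of the mitochondrial genes had an unadjusted p under 0.05, 4 nuclear ones did, and DESeq2 and limma-voom called 0 mitochondrial genes as well. DESeq2 called 1 nuclear member higher (Cox7a1) and limma-voom 0. With no filter beyond 1 count, 8 nuclear members were called higher and 0 lower, and Ndufs1 and Sdha lost their calls (adjusted p = 0.11 and 0.108, edgeR). The 95% interval of the log2 fold change lay within a 2-fold change either way for 42 of the 87 members, and for the other 45 it reached past 2-fold in at least 1 direction.

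Of the called genes, Ndufs1, the iron-sulfur subunit of the electron input arm of complex I (chr1:63182058-63216236, minus strand), was at 33.7, 34.5, 33.8 and 34.4 normalized CPM in PBS replicates 1 to 4, and at 30.7, 26.1, 27.5 and 27.2 in TNF. All TNF libraries were below all PBS libraries, and TNF 4 was like the others. Its log2 fold change was -0.29 (SE 0.0971, adjusted p = 0.033, edgeR). The adjusted p was 0.0324 without TNF 4, but 0.0778, 0.0767 and 0.071 without PBS 1, PBS 2 or PBS 3, and 0.102 and 0.0761 without TNF 2 or TNF 3. With library size alone as the scale the log2 fold change was -0.67 and the call was lost (adjusted p = 0.14).

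Sdha, the flavoprotein of complex II that oxidizes succinate (chr13:74469359-74498436, minus strand), was at 145, 145, 148 and 115 normalized CPM in PBS and at 120, 110, 104 and 103 in TNF. The groups overlapped through PBS 4, which was below TNF 1. The log2 fold change was -0.34 (SE 0.125, adjusted p = 0.0476, edgeR). The call was kept without TNF 4 (adjusted p = 0.0458) and without PBS 4 (0.017), and lost without any of the other 6 libraries (0.0629 to 0.125) and with library size alone (log2 fold change -0.70, adjusted p = 0.117). Sdha was also the call lost with RLE scaling (adjusted p = 0.0501). The 3 nuclear members called lower on that scale were Ndufs7, Ndufv3 and Cox7a2l, where 18.1% of all genes were called lower.

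The other 3 subunits of complex II did not pass. Sdhb, the iron-sulfur subunit, had a log2 fold change of -0.02 (95% interval -0.46 to 0.42), as had the membrane anchor Sdhc (-0.39 to 0.35), and the second anchor Sdhd was at 0.09 (-0.53 to 0.71). Without TNF 4 they were at -0.22 (-0.54 to 0.10), -0.15 (-0.45 to 0.14) and -0.31 (-0.62 to -0.0065), so all 4 estimates were then negative, and Sdhd was not called (adjusted p = 0.0827, edgeR). In TNF 4 they differed from Sdha: Sdhd was at 113 normalized CPM there, against 43.8 to 52.1 in TNF 1 to 3, while Sdha was at 103 against 104 to 120.

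Library TNF 4 dominated the values of the other members. All 7 mitochondrially encoded genes were highest of 8 libraries in TNF 4, at 2.79 to 4.37 times the mean of the other TNF libraries. mt-Co1 was at 2297, 2378, 3180 and 2366 normalized CPM in PBS, at 2215, 2379 and 2178 in TNF 1 to 3, and at 9874 in TNF 4. mt-Cytb was at 1239, 1226, 1723 and 1261 in PBS, at 1256, 1429 and 1245 in TNF 1 to 3, and at 4587 in TNF 4. Without TNF 4 the TNF values of both lay within or below the range of PBS.

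The mitochondrial subunits of complex I followed the same order. mt-Nd1 was at 613, 640, 808 and 628 normalized CPM in PBS and at 656, 749, 675 and 2819 in TNF, and mt-Nd2 at 442, 450, 620 and 478 and at 460, 557, 499.9 and 1703. mt-Nd4 was at 372, 347, 492 and 395 in PBS and at 327, 393, 355 and 1326 in TNF. mt-Nd5 was at 423, 361, 426 and 396 in PBS and at 369, 467, 447 and 1274 in TNF. mt-Nd6, the only gene on the other strand, was the lowest, at 105, 79.6, 109 and 108 in PBS and at 93.4, 110, 112 and 292 in TNF. In each of these genes TNF 1 to 3 overlapped with PBS.

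The log2 fold changes of the 7 genes were 0.58 to 0.86 with a median of 0.67, and no gene was called (adjusted p 0.142 to 0.286, edgeR). Without TNF 4 they were -0.16 to 0.11 with a median of 0.04, and all 7 intervals lay within a 2-fold change. With library size alone as the scale the median over 8 libraries was -0.046, while the median of all genes moved from 0.03 to -0.38. The size of the median thus depended on TNF 4 and its sign on the scale, and mt-Co1, mt-Cytb and mt-Nd4 were below 0 without TNF 4.

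In normalized CPM, nuclear members were raised in TNF 4 to unequal degrees. Their summed share of all counts was instead lowest in TNF 4, at 0.325% against 0.333 to 0.467% in the other libraries. In normalized CPM, TNF 4 was the highest of the 8 libraries in 72 of 80, and in 55 of 80 it was at least 2 times the mean of the other TNF libraries. The exceptions included the most abundant subunits, Atp5f1a (0.946 times) and Atp5f1b (1.07 times), together with Sdha (0.921), Ndufs1 (0.969) and Ndufa10 (0.942). The largest ratios were those of Cox7a1 (6.16 times), Atp5f1e, the epsilon subunit of complex V (5.83), Ndufb4 (5.04) and Atp5mk (4.97). Their transcripts were 441, 429, 971 and 2812 bases long. Cox7a1 and Ndufb4 were at low levels, with means of 1.02 and 0.664 normalized CPM in TNF 1 to 3, where such a ratio is unsteady. For the classes of length a small constant was added to both values of the ratio, which lowers it for such genes. This ratio had a median of 2.74 over the 28 members with transcripts under 750 bases, 2.59 over 22 of 750 to 1500 bases, 2.15 over 20 of 1500 to 3000 bases and 1.90 over 10 longer ones. Over all genes the medians in the same classes were 1.25, 1.33, 1.04 and 0.916. Spearman's rho between transcript length and the ratio was -0.30 across the 80 members and -0.27 across all 13316 genes, as a description across genes of 1 library, which are not independent. The part of transcript length in the TNF 4 values was not tested.

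**Figure D2:**
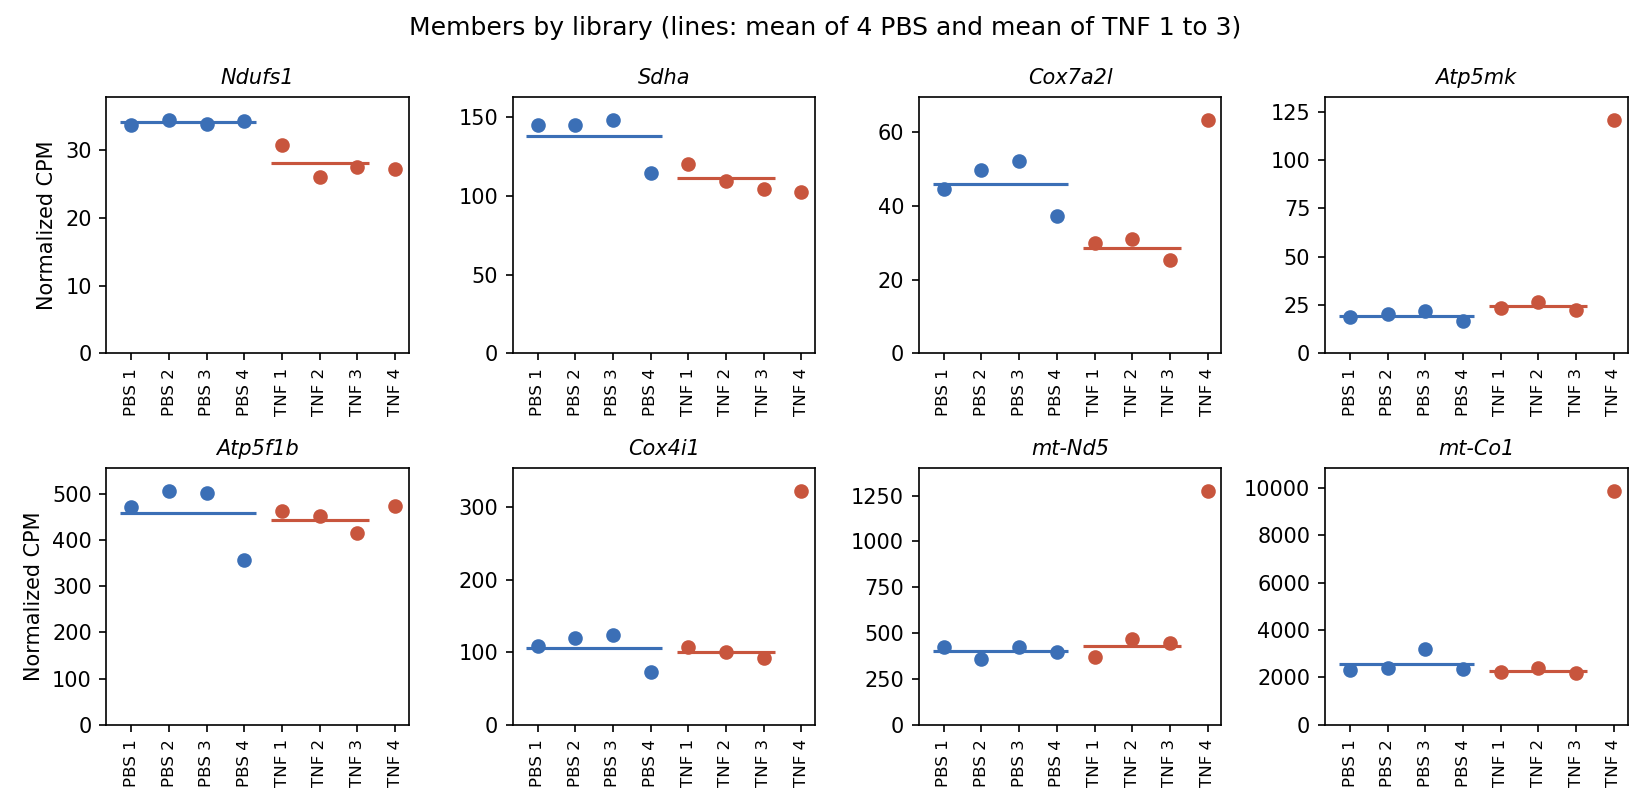
Normalized CPM of 8 members in each library (blue PBS, red TNF; y axes start at 0), with lines for the mean of the 4 PBS and of the 3 TNF libraries without TNF 4. Ndufs1 and Sdha were lower in TNF with TNF 4 among the others, whereas Cox4i1, Atp5mk, mt-Nd5 and mt-Co1 were highest in TNF 4.

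By complex, the median log2 fold change over the 8 libraries was 0.26 for the 37 tested nuclear members of complex I, -0.02 for 4 of complex II, 0.48 for 8 of complex III, 0.50 for 13 of complex IV and 0.36 for 18 of complex V, beside 0.03 over all genes. Over all 80 it was 0.30. Without TNF 4 these medians were -0.18, -0.26, -0.03, -0.06 and -0.05, and -0.15 over all 80, beside -0.02 over all genes. With library size alone they were -0.31, -0.48, -0.17, -0.15 and -0.23. The sign of complexes I, III, IV and V therefore changed with TNF 4 and with the scale, and complex II was the lowest of the 5 under all of these settings.

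Without TNF 4, 11 of the 87 members were called (12.6%), where 50.4% of 13726 genes were called, 23.8% lower and 26.6% higher. Of the 11, 10 were lower and 1 was higher. The lower ones were 8 subunits of complex I (among them Ndufb10, Ndufs1, Ndufs7 and Ndufv3), Sdha of complex II and Cox7a2l. No nuclear member of complex III or V was called lower. For 85 of the 87 members the interval now lay within a 2-fold change. Sdha and Cox7a2l were named for their role and Ndufs1 for its call over the 8 libraries. The other genes named here and on the scale of library size alone were chosen after their values were seen.

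Complex I is built from core subunits and accessory ones, and the nuclear core subunits are those of the catalytic arm that are conserved down to bacteria (among them Ndufs1, Ndufs7 and Ndufv1). Without TNF 4, 5 of these 7 and 3 of 30 accessory subunits were called lower (1 and 0 over all 8 libraries). Of all genes, 23.8% were called lower without TNF 4 and 19.6% over all 8 libraries. Without TNF 4 the 2 classes had median log2 fold changes of -0.32 and -0.17. Over all 8 libraries the medians were -0.21 and 0.33, and with library size alone -0.63 and -0.25. The difference between the 2 classes was not tested, and the split was not among the planned comparisons. The accessory class includes Ndufa4, placed here by its name. Ndufs7, which carries the last iron-sulfur cluster before ubiquinone, was at 24.4, 26.2, 25.9 and 21.7 normalized CPM in PBS and at 17.7, 16.8 and 18 in TNF 1 to 3, all below PBS, but at 29.8 in TNF 4. Its log2 fold change was -0.26 over the 8 libraries (adjusted p = 0.262) and -0.47 without TNF 4 (SE 0.103, adjusted p = 0.00271, edgeR).

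Cox7a2l, a factor of supercomplexes that join complexes III and IV, was at 44.7, 49.7, 52.1 and 37.3 normalized CPM in PBS, at 30, 31 and 25.3 in TNF 1 to 3 and at 63.4 in TNF 4. TNF 1 to 3 were all below PBS, and TNF 4 was above. Its log2 fold change was -0.31 over the 8 libraries (SE 0.259, adjusted p = 0.366) and -0.66 without TNF 4 (SE 0.13, adjusted p = 0.00136, edgeR). With library size alone and all 8 libraries it was -0.85 (adjusted p = 0.0242). Of its 75-base stretches, 35.0% occur elsewhere in the genome.

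Atp5mk, a small membrane subunit of complex V that helps dimers form, was the one member called higher without TNF 4. It was at 19, 20.6, 22 and 16.7 normalized CPM in PBS and at 23.5, 26.7, 22.7 and 121 in TNF, without overlap. The log2 fold change was 1.29 over the 8 libraries (SE 0.498, adjusted p = 0.0576) and 0.33 without TNF 4 (SE 0.117, adjusted p = 0.0359, edgeR). Together with Ndufs1 it was the only member of 80 nuclear ones whose groups did not overlap over the 8 libraries, where 42.1% of all genes had no overlap. Without TNF 4 the groups did not overlap in 7 of 80, against 53.3% of all genes.

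The remaining members named by abundance or role gave intervals that include no change. Atp5f1b was at 471, 506, 501 and 357 normalized CPM in PBS and at 462, 451, 415 and 473 in TNF, a log2 fold change of -0.03 (95% interval -0.36 to 0.31). Atp5f1a was at -0.09 (-0.45 to 0.27) and Cox8a at 0.01 (-0.38 to 0.39). Without TNF 4 the 3 log2 fold changes were -0.04 for Atp5f1b, -0.06 for Atp5f1a and -0.13 for Cox8a. For Atp5f1a, Atp5f1b and Cox8a a change of 2-fold or more lay outside the interval.

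The intervals were wider where TNF 4 was high. Cox4i1 was at 0.55 (-0.29 to 1.39), Ndufa4 at 0.63 (-0.33 to 1.59), Ndufa1 at 0.34 (-0.39 to 1.07) and Atp5if1, the inhibitor of reverse ATP hydrolysis, at 0.31 (-0.53 to 1.14). In complex III, Uqcr10 was at 0.64 (-0.26 to 1.54) and Uqcrb, a ubiquinone-binding subunit, at 0.51 (-0.06 to 1.08). Without TNF 4 the log2 fold changes were -0.07 for Cox4i1, -0.17 for Ndufa4, -0.15 for Ndufa1, -0.31 for Atp5if1, -0.06 for Uqcr10 and 0.16 for Uqcrb, and none was called.

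**Figure D3:**
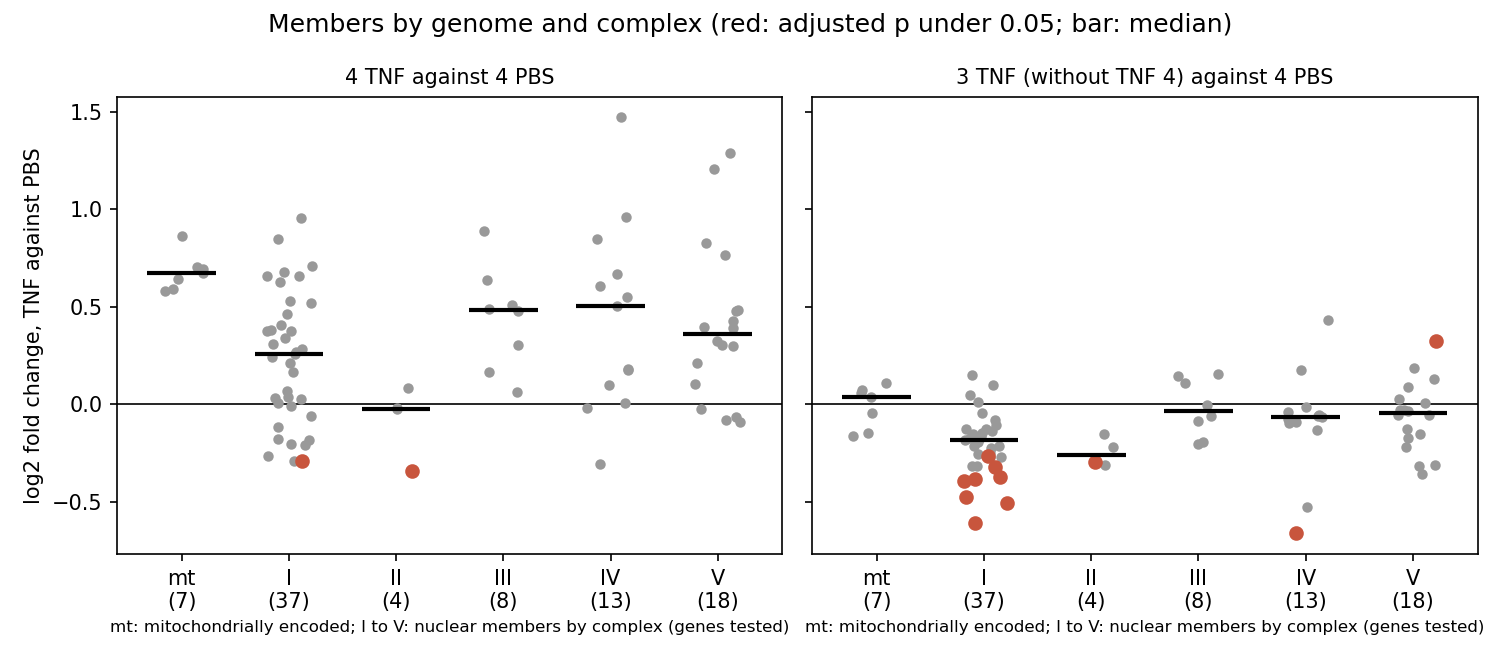
Log2 fold change (TNF against PBS) of each tested member, over 4 TNF and 4 PBS libraries (left) and without TNF 4 (right), for the 7 mitochondrially encoded genes and the nuclear members of complexes I to V. Red points passed an adjusted p under 0.05 (2 on the left, 11 on the right) and bars are medians, which fell from 0.67 to 0.04 for the mitochondrial genes and turned negative in complexes I, III, IV and V.

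Ratios within a library do not depend on the scale between libraries and were used to compare the genomes. Since 6 of the 13 mitochondrial genes had 0 to 2 counts and mt-Co1 and mt-Nd4 are partly shared with other loci, the mitochondrial side holds in effect 7 genes. Counts of the 13 mitochondrial genes made up 0.69, 0.576, 0.784 and 0.764% of all counts in PBS and 0.595, 0.606, 0.586 and 0.98% in TNF. The nuclear members made up 0.467, 0.434, 0.434 and 0.388% in PBS and 0.394, 0.347, 0.333 and 0.325% in TNF. All of TNF 2 to 4 were below PBS for the nuclear members, and TNF 1 was above PBS 4. The denominator of these shares includes the Defa counts, which were highest in TNF 4. The part of the Defa counts in the shares was not tested.

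The ratio of mitochondrial to nuclear counts was 1.48, 1.33, 1.81 and 1.97 in PBS and 1.51, 1.75, 1.76 and 3.02 in TNF. TNF 1 to 3 lay inside the PBS range and TNF 4 above it. On the log2 scale the means were 0.70 ± 0.26 (SD, n = 4) in PBS and 0.95 ± 0.44 (SD, n = 4) in TNF, a difference of 0.25 that was smaller than the spread within either group. Without TNF 4 the TNF mean was 0.74 and the difference 0.04.

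**Figure D4:**
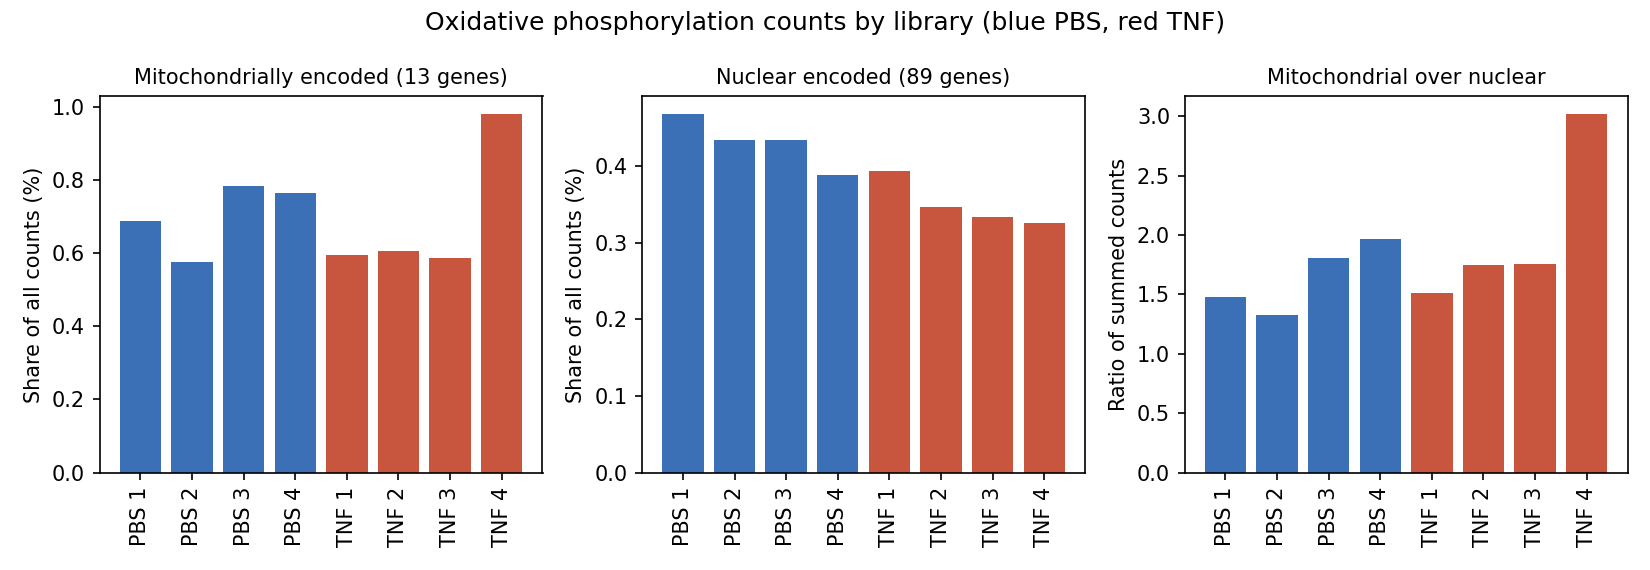
Share of all counts on the 13 mitochondrially encoded genes (left; 6 of them at 0 to 2 counts per library), on the 89 nuclear encoded genes (middle) and their ratio (right) in each library (bars, blue PBS, red TNF). The ratio was 1.33 to 1.97 in PBS, 1.51 to 1.76 in TNF 1 to 3 and 3.02 in TNF 4.

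The balance among the 5 complexes was read in the same way, as each complex's share of the counts on nuclear members. Complex II held 8.21, 7.69, 7.85 and 8.11% in PBS and 7.31, 6.96, 7.15 and 4.71% in TNF. All TNF libraries were below all PBS libraries, and the mean without TNF 4 was 7.14 ± 0.17 (SD, n = 3) against 7.97 ± 0.24 (SD, n = 4). Sdha had the highest normalized CPM of the 4 genes in PBS.

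Complex III held 11.2, 11.5, 11.1 and 11.3% in PBS and 11.8, 12.1, 12.0 and 13.7% in TNF, again without overlap and in the other direction. These 2 shares, II lower and III higher, kept their direction with and without TNF 4. They are shares of one total, so a fall in one complex raises the others, and no test was made of them.

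For complexes I and V, TNF 4 reversed the order. Complex I held 23.6, 23.8, 24.04 and 24.5% in PBS and 22.1, 22.0 and 21.9% in TNF 1 to 3, but 25.5% in TNF 4. Complex V held 41.7, 41.8, 41.2 and 41.2% in PBS and 43.3, 43.4 and 43.6% in TNF 1 to 3, but 35.8% in TNF 4. Complex IV held 14.9 to 15.8% in PBS, 15.3 to 15.5% in TNF 1 to 3 and 20.3% in TNF 4. The groups without TNF 4 overlapped in complex IV alone.

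**Figure D5:**
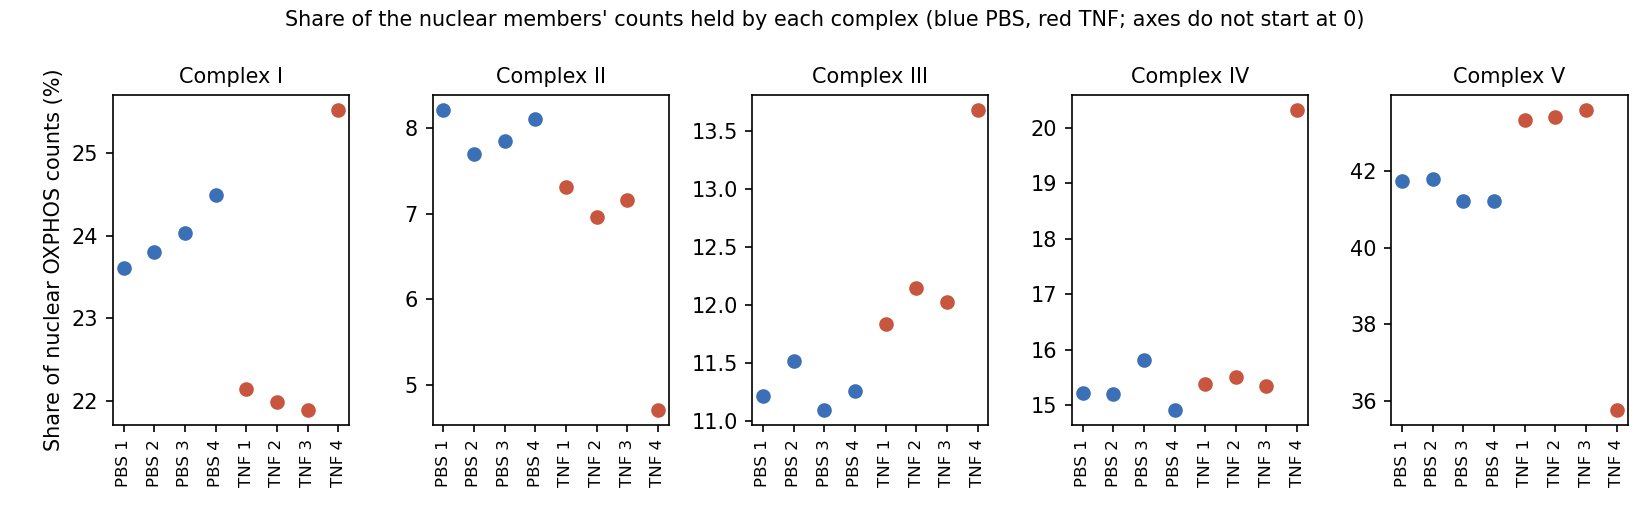
Share (%) of the nuclear members' counts held by complexes I to V in each library (points, blue PBS, red TNF; y axes differ and do not start at 0). Complex II was lower and complex III higher in all 4 TNF libraries, and TNF 4 lay apart from TNF 1 to 3 in all 5 panels.

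Lists of genes around the complexes are given beside the background of 23.4% of all genes called higher and 19.6% lower over the 8 libraries, and 26.6% and 23.8% without TNF 4. Among 77 tested genes of the mitochondrial ribosome, which translates the mitochondrial mRNAs, 17 rose and 1 fell (15 and 7 without TNF 4). These were 22.1% higher and 1.3% lower, and 19.5% and 9.09% without TNF 4, so the rises were near or below the background and the falls below it. Mrps18b rose by a log2 fold change of 1.12, from 5.95 to 10.3 normalized CPM in PBS to 16.6 to 19.4 in TNF, and Mrpl48 by 0.89. Of 46 tested assembly factors, 10 rose and 6 fell (10 and 14 without TNF 4), or 21.7 and 13% (21.7 and 30.4%). Sdhaf1, which delivers iron-sulfur clusters to complex II, was at 6.14, 8.85, 7.17 and 4.98 normalized CPM in PBS and at 28.6, 23.7, 22.6 and 49 in TNF, which gave 2.19 on the log2 scale (SE 0.267, adjusted p = 8.8e-05, edgeR). Sco1, a copper chaperone of complex IV, rose by 1.11 with no overlap of the groups.

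Of 17 tested electron carrier genes, 2 rose and 3 fell (4 and 5 without TNF 4), or 11.8 and 17.6% (23.5 and 29.4%). Coq8a, a regulator of ubiquinone synthesis, was at 24.4, 26.3, 20.8 and 17.3 normalized CPM in PBS and at 3.69, 2.25, 2.84 and 3.43 in TNF, a fall in every library against every control (log2 fold change -2.87, SE 0.195, adjusted p = 1.6e-06, edgeR). Cycs, cytochrome c, which carries electrons from complex III to IV, was at 18.4, 19.4, 21 and 11.7 in PBS and at 31.4, 36.2, 30.6 and 57.4 in TNF (log2 fold change 1.14, SE 0.234, adjusted p = 0.00264). Of 19 TCA cycle genes, 2 rose and 2 fell (2 and 4 without TNF 4), or 10.5% each (10.5 and 21.1%). Pdha1, the E1 alpha subunit of pyruvate dehydrogenase, was at 144 to 166 in PBS and 83.5 to 112 in TNF, and Idh2 at 46 to 61.6 and 31 to 40.5, each with a log2 fold change of -0.58. Of 11 tested inner membrane carriers and uncouplers, 2 rose and 2 fell (3 and 3 without TNF 4), or 18.2% each (27.3% each), with the dicarboxylate carrier Slc25a10 at 0.87 and the uncoupling protein Ucp2 at -0.62.

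Genes that act on mitochondrial DNA and RNA gave 10 rises and 4 falls among 27 tested (9 and 6 without TNF 4), or 37 and 14.8% (33.3 and 22.2%) beside the same background of 23.4 and 19.6% (26.6 and 23.8%). The mitochondrial RNA polymerase Polrmt was at 10.1, 9.18, 8.94 and 8.71 normalized CPM in PBS and 7.63, 5.71, 7.19 and 10.1 in TNF (log2 fold change -0.28, adjusted p = 0.194; -0.42 and 0.0216 without TNF 4). Tfam, which packs the mitochondrial genome and helps start its transcription, was at 0.14 (95% interval -0.25 to 0.53), and Lrpprc, which stabilizes mitochondrial mRNAs, at -0.09 (-0.35 to 0.18). Mterf2 fell by 2.48 on the log2 scale and Fastkd3 rose by 0.94. The ribosomal RNAs mt-Rnr1 and mt-Rnr2 were at 0.62 and 1.08, and at -0.05 and -0.08 without TNF 4, neither called. Tfam and Lrpprc also took the other sign without TNF 4, at -0.03 (-0.30 to 0.24) and 0.0049 (-0.22 to 0.23).

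Of 16 tested regulators of mitochondrial gene expression, 7 rose and 1 fell, with and without TNF 4, or 43.8 and 6.25%. No test of a list against the background was made. Hif1a, the oxygen-sensing transcription factor, was at 28.8, 27.1, 27.2 and 28.5 normalized CPM in PBS and at 132, 144, 162 and 96 in TNF (log2 fold change 2.26, SE 0.16, adjusted p = 2.2e-06, edgeR). The 2 subunits of the GABP factor differed. Gabpb1 was at 9.15 to 11.5 in PBS and 27.7 to 33 in TNF (log2 fold change 1.57), and Gabpa, its DNA-binding partner, at 22.8 to 25.5 and 16.8 to 24.1 (-0.16, 95% interval -0.44 to 0.11). Nrf1, a factor named for respiratory genes, rose by 0.46 (adjusted p = 0.00674, edgeR), with adjusted p of 0.053 without PBS 1 and 0.0502 without TNF 2, while the coactivator Ppargc1a was at -0.15 (-0.61 to 0.30). Without TNF 4 the log2 fold changes were 1.91 for Sdhaf1, -2.91 for Coq8a, 0.91 for Cycs, 2.40 for Hif1a and 1.54 for Gabpb1, each called. With library size alone Cycs, Fastkd3, Mrpl48, Mrps18b, Nrf1, Pdha1, Sco1, Slc25a10 and Ucp2 kept their direction and were not called. That scale gave 757 genes higher and 2425 lower in all, or 5.66 and 18.1%, against 3122 and 2625. On it, 0 of the 77 mitochondrial ribosome genes rose and 3 fell, 1 assembly factor rose and 7 fell, 0 genes of mitochondrial DNA and RNA rose and 4 fell, and 2 regulators rose. No electron carrier, TCA cycle gene or inner membrane carrier rose on it, and 3, 1 and 0 fell.

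The promoters of the nuclear members were searched for letters known from respiratory genes, in RefSeq windows of 300 bases (GRCm38.p6), on both strands. Of the 80 tested nuclear members, 66 matched a window by symbol or older symbol. The GABP and ETS core CCGGAAG was in 24.2% of the members' promoters and in 9.93% of all 27025 genes with a window. The NRF1 palindrome was in 7.58% (5 of 66) against 1.07%, and the ERRA element in 6.06% (4 of 66) against 1.76%. The general letters CCAAT were in 42.4% against 41.1%, and TATAAA in 7.58% against 15.7%. These are matches of letters and not measured binding. The members searched were genes with enough counts to be tested, while the background held every gene with a window, expressed here or not. The differences in share were not tested.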

How the data were processed

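RNA-seq was read from 8 libraries of sorted PCs (4 PBS, 4 TNF). The authors deposited raw counts per Ensembl gene, with 1 column per library and no normalization, and 0 columns of per-sample values were left unused. The submitters' processing notes name FastQC 0.12, STAR 2.7.10a, DESeq2 and the mm39 build. The counter, the strand setting and the treatment of reads with several matches are not stated in the sources. Libraries were made with a stranded mRNA kit.

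Symbols, positions and canonical transcript lengths came from GENCODE release M39 (GRCm39): 54749 of 55414 IDs matched and 665 did not. Genes were tested with edgeR 4.0.16 (quasi-likelihood F test, R 4.3.3, TMM scaling, filterByExpr, no covariate), adjusted by Benjamini-Hochberg over 13368 genes and called at an adjusted p under 0.05. SE and 95% intervals of log2 fold changes were derived from the F statistic. No set test and no p over the members was computed. Libraries of a group differed by at least 8.77 in the chi-square per degree of freedom, so no library was a duplicate. P-values measure the spread between these libraries. On counts simulated for this comparison (13578 genes), 90 of 98 genes changed 2-fold (91.8%) and 100 of 100 changed 4-fold were recovered, with 11 false calls. The simulation gave every gene the same spread, changed far fewer genes than were called here and held no library apart like TNF 4. Its shares therefore do not tell how many changed members would be found in these data. Copies of sequence were sought as exact 75-base stretches of the transcript anywhere else in GRCm39.

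The members and lists were chosen with earlier results of these data known. Named genes were the 13 mitochondrial genes, all Sdh genes, in each nuclear complex the 3 called members with the largest rise and fall at 5 normalized CPM or more and the 2 highest per kb in PBS, Ndufa4, Ndufa4l2, Cox4i1, Cox4i2, Cox7a2l and Atp5if1, the 2 genes of smallest p in each pathway list, and Polrmt, Tfam, Lrpprc, Ppargc1a, Nrf1, Gabpa, Ucp2 and Cycs. Other genes were chosen after their values were seen. 1 list gene (Fastkd4) was not matched. Alternatives were scaling by RLE, by library size alone or without Defa or mitochondrial genes, no filter beyond 1 count, at least 1 CPM in 4 libraries, DESeq2 1.42.0, limma-voom (limma 3.58.1), a block on the replicate number, a threshold of 0.01, Ndufa4 in complex IV, other forms of the ratio, and leaving out each library. Some items are not reported here.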

Additional observations from a re-analysis of the deposited data

Results flagged for a closer look

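Values of single libraries were compared with the rest of their group by Dixon's ratio, the gap to the nearest library over the range of the group. Of 104 values (52 quantities in 2 groups of 4), 31 were past the 95% limit for 4 libraries, where chance flags about 1 in 20 groups. TNF 4 was the library apart in 24 of the 31. These were the summed normalized CPM of the mitochondrial genes (0.96), the nuclear genes (0.90) and complexes I (0.91), III (0.92), IV (0.93) and V (0.85), and single genes: mt-Co1 (0.97), mt-Cytb (0.94), mt-Nd1 (0.96), mt-Nd2 (0.92), mt-Nd4 (0.93), mt-Nd5 (0.89), mt-Nd6 (0.91), mt-Rnr2 (0.98), Ndufa1 (0.92), Ndufa4 (0.95), Sdhd (0.88), Uqcr10 (0.91), Uqcrb (0.95), Cox4i1 (0.93), Cox7a2l (0.85), Cox8a (0.90), Atp5if1 (0.85) and, as the one lowest value, Pdha1 (0.91).

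In PBS, replicate 3 was apart on the high side for the summed mitochondrial genes (0.92), mt-Co1 (0.91), mt-Cytb (0.93) and mt-Nd1 (0.86). PBS 4 was apart on the low side for summed complex II (0.84) and Sdha (0.90), and PBS 2 for mt-Nd6 (0.86). The PBS 4 value of Sdha is the one through which its groups overlapped.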

How the results depend on the processing

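Of the 44 genes followed, none changed sign where it was called in either fit, but medians and genes that were not called did. The number of genes called over all genes was 5747 and fell to 3182 with library size alone. It was 4756 to 6922 when 1 library was left out. The mitochondrial genes called stayed at 0 under every alternative. The nuclear members called higher (0) were 8 with no filter beyond 1 count, 1 with DESeq2 and 0 to 2 when 1 library was left out. The nuclear members called lower (2) were 1 with RLE scaling (Ndufs1), 0 with no filter beyond 1 count, 0 at an adjusted p under 0.01, and 0 to 10 when 1 library was left out, with the 10 reached without TNF 4 and 5 without PBS 4. The median log2 fold change of the mitochondrial genes (0.67) was -0.046 and that of the nuclear members (0.30) -0.27 with library size alone. With limma-voom these were 0.51 and 0.14, and the medians of complexes I to V were 0.093, -0.043, 0.26, 0.27 and 0.19. Both genome medians ranged over the left-out libraries, from 0.04 to 0.83 and from -0.15 to 0.44, in both cases lowest without TNF 4, where the nuclear median turned negative. The log2 difference of the ratio of the genomes (0.25) was 0.04 to 0.37 in the same way. For the 44 genes, 713 of 747 values kept their call or lack of one, 30 were no longer called and 4 became called, and 48 of the 713, in 19 genes and with no call in either fit, had the other sign. The medians of the complexes had the other sign in 11 of 87 values, which touched all 5 complexes. Those of I, III, IV and V turned with library size alone and without TNF 4, and that of II without PBS 2, PBS 3 or TNF 3. The causes were not tested.

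Replicate numbers 1 to 4 are shared by the groups, and deviations of same-numbered libraries from their group means correlated at 0.0229, 0.0663, -0.144 and -0.126. These values show no pairing by number. They cannot decide the question, because TNF 4 lay apart and shifts the mean from which all TNF deviations are taken. With the replicate number as a block, 5087 genes were called, 0 nuclear members were called lower (Ndufs1 adjusted p = 0.0783, Sdha 0.0778), and the medians were 0.43 for mitochondrial and 0.17 for nuclear members.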
